A study of Ovis aries with 3 samples.

Results

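The bone morphogenetic protein (BMP) and TGF-beta pathway was followed gene by gene in single cells of whole sheep embryos. Members were taken by symbol: every gene named BMP, GDF, TGFB, TGFBR, ACVR, BMPR, INHA, INHB, SMAD or ID with only the number or letter code of its family, together with *GREM1*, *FST* and *BAMBI*. This gave 52 genes of the 26478 listed in the deposited matrices, of which 16670 carry a symbol. The rule used names only, and no measured value entered it.

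Ligands of this superfamily are secreted dimers that bring together type 1 and type 2 serine/threonine kinase receptors. Most BMP and several GDF ligands lead to phosphorylation of SMAD1, SMAD5 and SMAD9, whereas TGF-beta and activin ligands lead to that of SMAD2 and SMAD3. Both branches share SMAD4 on the way to the nucleus. The *ID* genes, which encode inhibitors of helix-loop-helix transcription factors, are well-known targets of the BMP branch, and in vertebrate embryos BMP signalling takes part in dorsoventral patterning, in limb bud outgrowth and in the regression of the apical ectodermal ridge (AER).

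The study set out to relate a mutation of the *T* gene to tail length in sheep, and here 3 libraries were available, 1 per condition: a day 19 embryo of Hulunbuir Short-tailed sheep (E19 HSTS), a day 19 embryo of Hu sheep (E19 HS) and day 16 Hu sheep (E16 HS). Per the study's genotyping, the HSTS ewes and ram carried a missense change of *T* on both alleles and the HS ewes and ram carried the wild-type allele, so that breed and *T* genotype go together and cannot be told apart. Whole embryos were dissociated with collagenase and passed through a red blood cell lysis step before droplet capture and 3′ tag counting. For E16 HS the label names a single embryo while the study's text names 3, so it is unsettled whether that library is a pool. With 1 library per condition there is no spread between embryos, so no test was run, and every interval given is a 95% interval for counting error alone.

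After the filter on genes, transcripts and mitochondrial share, 9618 cells of E19 HSTS, 10629 cells of E19 HS and 11329 cells of E16 HS were kept. Series of 3 values follow this order of the libraries unless stated otherwise. The median was 8675, 6900 and 9046 unique molecular identifiers (UMIs) per cell, and the kept cells summed to 99580051, 88733467 and 113213654 UMIs. The libraries shared 38 to 42 barcodes in pairs, at most 0.369% of a library. Of 33 clusters, 25 could be assigned to 14 classes by marker genes, each called "like" its cell type. Erythroid-like cells made up 27.4%, 13.4% and 17.7% of the kept cells, and they held more UMIs per cell (medians of 17491, 17572 and 13947) than the other cells (7250, 6348 and 8128). A level in a whole library is a sum over all its cells, so fewer cells of a class and fewer transcripts per cell cannot be told apart there. The members are therefore compared both over all cells and, where counts allow, within classes. Further genes of the pathway were not compared within single classes.

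The members covered a wide range of counts. At least 500 UMIs in 1 or more libraries were found for 21 members, 100 to 499 for 11 and 1 to 99 for 18, whereas *BMP15* and *INHBC* had no UMI, which allows up to 0.0301, 0.0338 and 0.0265 UMIs per 1000000 UMIs (counts per 1000000, CPM). All 4 *ID* genes were among the 21, as were 3 of 13 BMP group ligands, 2 of 9 TGF-beta and activin group ligands, 2 of 7 type 1 receptors and 3 of 4 type 2 receptors. A UMI was present in at least 1% of cells for 26, 27 and 28 members, and for 22, 23 and 23 after each cell was thinned to 3000 UMIs. The share in erythroid-like cells, which should lack most of these genes, served as the background before thinning: 3, 4 and 2 members did not exceed it. Erythroid-like cells held more UMIs each, which raises their share, so a member that did not exceed it may still be higher per UMI elsewhere. The members not above it were *SMAD6*, an inhibitory SMAD, in all 3 libraries, *TGFBR3L* in both day 19 libraries, *GDF9* in E19 HSTS, *TGFB1* and *ID1* in E19 HS, and *GDF2* in E16 HS.

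**Figure D1:**
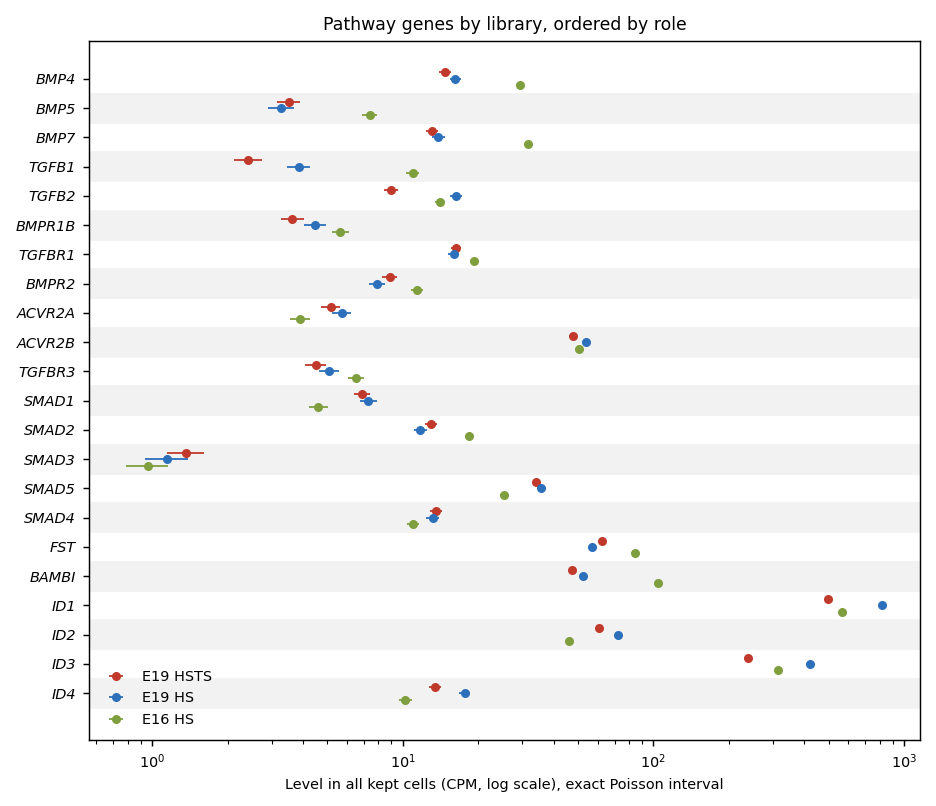
Level of each member with at least 500 UMIs in a library, and of *SMAD3*, in all kept cells of E19 HSTS (red), E19 HS (blue) and E16 HS (green), as CPM on a log axis with exact Poisson intervals. *BMP4*, *BMP7* and *BAMBI* stand apart in E16 HS, while *ID1* and *ID3* are highest in E19 HS.

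Taken over all kept cells, the 2 comparisons differed in how many members passed a 1.5-fold ratio. Between E19 HSTS and E19 HS, 29 members had at least 100 UMIs in the higher library, and 6 of them differed by at least 1.5-fold: 1 was higher in E19 HSTS (3.56% of 10001 genes were) and 5 were lower (5.24% of all genes), where 8.80% of all genes passed this fold in either direction. Between E16 HS and E19 HS, 12 of 32 members did, 8 higher in E16 HS (23.1% of 10437 genes) and 4 lower (8.44%), where 31.6% of all genes passed. The median ratio was 0.907 for the members and 0.967 for all genes between the breeds, and 1.14 and 1.20 between the stages. The share of members past the fold was thus 20.7% against 8.80% for the breeds and 37.5% against 31.6% for the stages. Both comparisons use the E19 HS library, so they are not independent of each other. The split into higher and lower members changed with the makeup and the scaling of the libraries. Without erythroid-like cells it was 2 higher and 0 lower between the breeds, where 7.99% of all genes were higher and 2.03% lower, and 7 and 7 between the stages, against 16.8% and 10.6% of all genes. With equal weight for each class it was 3 and 1 between the breeds (9.93% and 2.49% of all genes) and 2 and 5 between the stages (14% and 10.5%). With TMM scaling, which sets libraries on the bulk of their genes, it was 1 and 5 (4.36% and 4.27%), and 7 and 8 (12.1% and 12.6%).

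**Figure D2:**
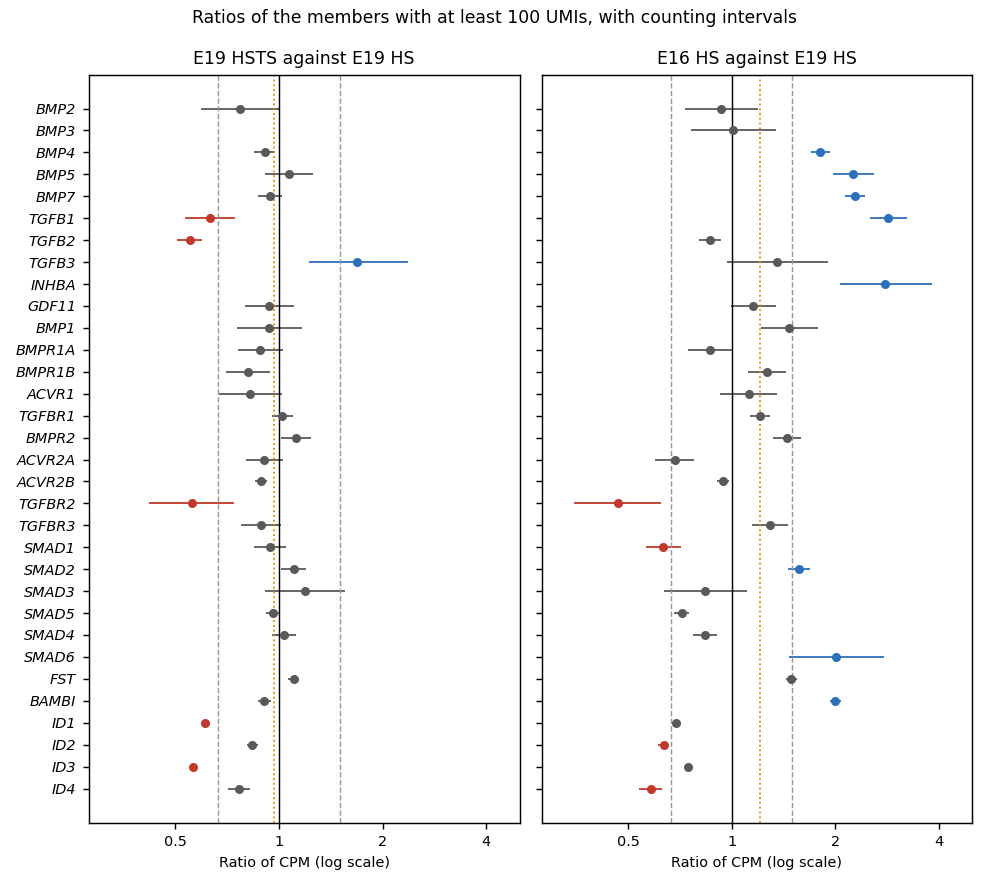
Ratio of CPM for each member with at least 100 UMIs, E19 HSTS to E19 HS on the left and E16 HS to E19 HS on the right, on a log axis with exact intervals; blue and red mark members at least 1.5-fold higher or lower (dashed lines), and the dotted line is the median of all genes. Most breed ratios lie close to 1, with *ID1*, *ID3*, *TGFB1*, *TGFB2* and *TGFBR2* below the dashed line, and the stage ratios spread from 0.467 for *TGFBR2* to 2.85 for *TGFB1*.

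Among the BMP group ligands, *BMP4*, which acts in ventral and posterior mesoderm and in limb and neural patterning, measured 14.7 CPM in E19 HSTS, 16.2 CPM in E19 HS and 29.4 CPM in E16 HS. *BMP7*, a ligand of kidney, limb and eye development that can pair with BMP4, measured 13.0, 13.9 and 31.7 CPM. *BMP5*, a ligand of skeletal and heart development, measured 3.51, 3.28 and 7.40 CPM. The pattern was the same for all 3: the day 19 libraries lay close together and E16 HS stood above both. The stage ratio, E16 HS over E19 HS, was 1.81 (1.70 to 1.93) for *BMP4*, 2.28 (2.14 to 2.44) for *BMP7* and 2.26 (1.97 to 2.59) for *BMP5*, against a median of 1.20 for all genes. The breed ratio, E19 HSTS over E19 HS, was 0.908 (0.844 to 0.977), 0.940 (0.868 to 1.02) and 1.07 (0.912 to 1.25), so the day 19 difference of *BMP4* was small and those of *BMP7* and *BMP5* were within counting error. *BMP2* and *BMP3* had 81 to 151 UMIs in each library with stage ratios of 0.932 and 1.01. The other BMP group ligands (*BMP6*, *BMP10*, *GDF2*, *GDF5*, *GDF6*, *GDF7* and *GDF10*) had at most 29 UMIs in any library.

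The share of cells with a UMI of *BMP4* was 9.15%, 9.02% and 16.3%, against 1.90%, 1.48% and 2.50% of erythroid-like cells. For *BMP7* it was 9.17%, 8.43% and 18.2%, against 0.759%, 1.62% and 1.70%. After thinning, the shares for *BMP4* were 4.50%, 5.28% and 7.69%, so E16 HS remained the highest at equal depth.

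Of the TGF-beta and activin group, *TGFB1* measured 2.42, 3.84 and 11.0 CPM, *TGFB2* 8.98, 16.3 and 14.1 CPM, and *TGFB3* 1.11, 0.654 and 0.883 CPM. These 3 ligands signal through TGFBR1 and TGFBR2, and they did not follow one another: *TGFB1* was highest in E16 HS, *TGFB2* was lowest in E19 HSTS, and *TGFB3*, with 58 to 110 UMIs, was highest in E19 HSTS. The breed ratio was 0.630 (0.532 to 0.745) for *TGFB1*, 0.551 (0.506 to 0.599) for *TGFB2* and 1.69 (1.22 to 2.37) for *TGFB3*. The stage ratio was 2.85 (2.53 to 3.22) for *TGFB1* and 0.864 (0.804 to 0.928) for *TGFB2*. With equal weight for each class the breed ratio of *TGFB1* was 1.02, on the other side of 1. In E19 HS the share of cells with a UMI of *TGFB1* was 2.64%, not above the 2.89% of the deeper erythroid-like cells. Per UMI, however, its level there was 3.84 CPM over all cells and 1.72 CPM in erythroid-like cells.

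*INHBA*, which encodes the subunit of activin A, had 43, 56 and 199 UMIs, or 0.432, 0.631 and 1.76 CPM, and was 2.79-fold (2.06 to 3.82) higher in E16 HS than in E19 HS. *GDF11*, a ligand known for axial patterning of the trunk and tail, stayed between 3.06 and 3.77 CPM in the 3 libraries. *BMP1*, a protease that cleaves procollagen and the BMP antagonist chordin rather than a ligand of the family, measured 1.80, 1.92 and 2.81 CPM. *INHA*, *INHBB*, *INHBE*, *GDF9* and *GDF15* had at most 61 UMIs in any library.

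Most receptors stayed within 1.5-fold in both comparisons. *ACVR2B*, a type 2 receptor for activins, GDF11 and some BMPs, measured 47.6, 53.8 and 50.7 CPM. *TGFBR1*, the type 1 receptor of TGF-beta, measured 16.3, 15.9 and 19.3 CPM, and *BMPR2*, a type 2 receptor used mainly by BMPs, 8.87, 7.91 and 11.4 CPM. The breed ratios of these 3 genes were 0.884 (0.849 to 0.920), 1.02 (0.952 to 1.10) and 1.12 (1.01 to 1.24), and none of the 4 type 1 receptors with enough counts passed 1.5-fold in either comparison. *BMPR1B*, a type 1 receptor of cartilage and limb, measured 3.63, 4.46 and 5.64 CPM, and *BMPR1A*, its widely used relative, 3.47, 3.92 and 3.38 CPM. *ACVR2A* measured 5.17, 5.70 and 3.90 CPM, with a stage ratio of 0.683 (0.60 to 0.778).

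*TGFBR2* was the exception among the receptors over all cells. This type 2 receptor of TGF-beta had 82, 131 and 78 UMIs, or 0.824, 1.48 and 0.689 CPM, and was lower than in E19 HS in both E19 HSTS (ratio 0.558, 0.418 to 0.741) and E16 HS (0.467, 0.348 to 0.622). The co-receptor *TGFBR3*, betaglycan, measured 4.49, 5.07 and 6.54 CPM. *ACVR1* stayed within 1.5-fold, and *ACVR1B*, *ACVR1C*, *ACVRL1* and *TGFBR3L* had at most 50 UMIs in any library.

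Among the SMADs, *SMAD5* measured 34.1, 35.5 and 25.4 CPM and *SMAD1* 6.87, 7.29 and 4.61 CPM. Both transduce BMP signals, and both were lower in E16 HS: the stage ratio was 0.716 (0.680 to 0.753) for *SMAD5* and 0.632 (0.562 to 0.711) for *SMAD1*. *SMAD2*, which transduces TGF-beta and activin signals, measured 13.0, 11.8 and 18.4 CPM with a stage ratio of 1.57 (1.45 to 1.69), in the opposite direction. *SMAD3*, the other transducer of that branch, had only 136, 102 and 109 UMIs. Its levels were 1.37, 1.15 and 0.963 CPM, its breed ratio was 1.19 (0.912 to 1.55) and its stage ratio was 0.838 (0.634 to 1.11), and both intervals included 1. Without erythroid-like cells, however, its breed ratio was 1.51 (1.15 to 1.98). The common *SMAD4* measured 13.6, 13.2 and 11.0 CPM. All breed ratios of the receptor SMADs lay between 0.942 and 1.19. Of the inhibitory SMADs, *SMAD6* had 84, 57 and 146 UMIs with a stage ratio of 2.01 (1.47 to 2.78). Its share of cells was not above that in erythroid-like cells, which held more UMIs each. *SMAD7* had at most 39 UMIs.

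The inhibitors included 2 of the more abundant members. *FST*, which encodes follistatin, a secreted protein that binds activins and some BMPs, measured 62.5, 56.7 and 84.5 CPM. *BAMBI*, a receptor-like protein without a kinase domain, measured 47.4, 52.2 and 104 CPM. Both were highest in E16 HS, with stage ratios of 1.49 (1.44 to 1.54) and 2.00 (1.93 to 2.07), and the breed ratios were 1.10 (1.06 to 1.14) and 0.907 (0.871 to 0.945). *GREM1*, a secreted BMP antagonist of the limb bud, had 15, 11 and 43 UMIs.

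The *ID* targets had the highest counts of all members. *ID1* measured 495 CPM in E19 HSTS, 815 CPM in E19 HS and 563 CPM in E16 HS, and *ID3* 238, 423 and 315 CPM. *ID2* measured 60.7, 72.5 and 45.9 CPM and *ID4* 13.5, 17.6 and 10.2 CPM. All 4 genes were highest in E19 HS. The breed ratio was 0.608 (0.601 to 0.615) for *ID1*, 0.563 (0.554 to 0.572) for *ID3*, 0.838 (0.808 to 0.868) for *ID2* and 0.763 (0.709 to 0.821) for *ID4*, and the stage ratio was 0.691 (0.683 to 0.698), 0.744 (0.734 to 0.755), 0.634 (0.611 to 0.657) and 0.581 (0.538 to 0.627). *ID1* and *ID3* thus differed most between the breeds, and *ID2* and *ID4* between the stages.

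*ID1* was seen in 71.7%, 82.8% and 75.3% of all kept cells, or 54.0%, 69.7% and 56.1% after thinning. In erythroid-like cells the shares were 56.0%, 83.2% and 55.4%, or 21.1%, 38.6% and 20.6% after thinning, so E19 HS was the highest there too, and in E19 HS the share over all cells was not above that in erythroid-like cells before thinning. There were 6.03, 6.79 and 3.60 UMIs of *ID1* per UMI of *ID3* in erythroid-like cells and 1.95, 1.83 and 1.75 in the other cells. This ratio differed between the cell types, and erythroid-like cells held 9.38%, 6.79% and 4.60% of all *ID1* UMIs. *ID1* and *ID3* are also known as genes that respond to serum. Of a list of 20 immediate early genes, 19 were found, and their summed level was 512, 398 and 117 CPM. It was highest in E19 HSTS and lowest in E16 HS, while the *ID* genes were highest in E19 HS. Past 1.5-fold, and counted without a minimum of UMIs, 7 of the 19 were higher and 1 lower in E19 HSTS than in E19 HS. Of all genes with at least 100 UMIs, 3.56% and 5.24% were. The 7 include *FOSL1* (4 and 2 UMIs) and *FOSB* (96 and 47), and the 1 lower was *EGR3* (42 and 66). In E16 HS, 0 were higher and 15 lower than in E19 HS (23.1% and 8.44%). The 15 include *EGR2*, with 3 UMIs in E16 HS and 11 in E19 HS. These counts and the shares of all genes thus rest on different minimums. The part of such a response in the *ID* values was not tested.

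The classes differed in which members they carried. Over 22 classes and clusters with at least 50 cells in a library, 35 members had at least 100 UMIs in all, and for 31 of them the highest class was at least 2 times the median class, against 67.6% of 12081 genes. The 4 members without such a class were *SMAD1*, *SMAD2*, *SMAD5* and *SMAD4*. The sparse *SMAD3*, with 347 UMIs over all libraries, had one, the notochord-like class, at a mean of only 4.3 CPM. Its highest class was notochord-like in E19 HSTS (5.96 CPM) but caudal progenitor-like in E19 HS (3.67 CPM), so this difference from the other SMADs may be counting error. Levels are given next as the mean over the libraries in which the class had at least 50 cells. They compare classes for 1 gene at a time, since tag counts do not compare genes per length.

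**Figure D3:**
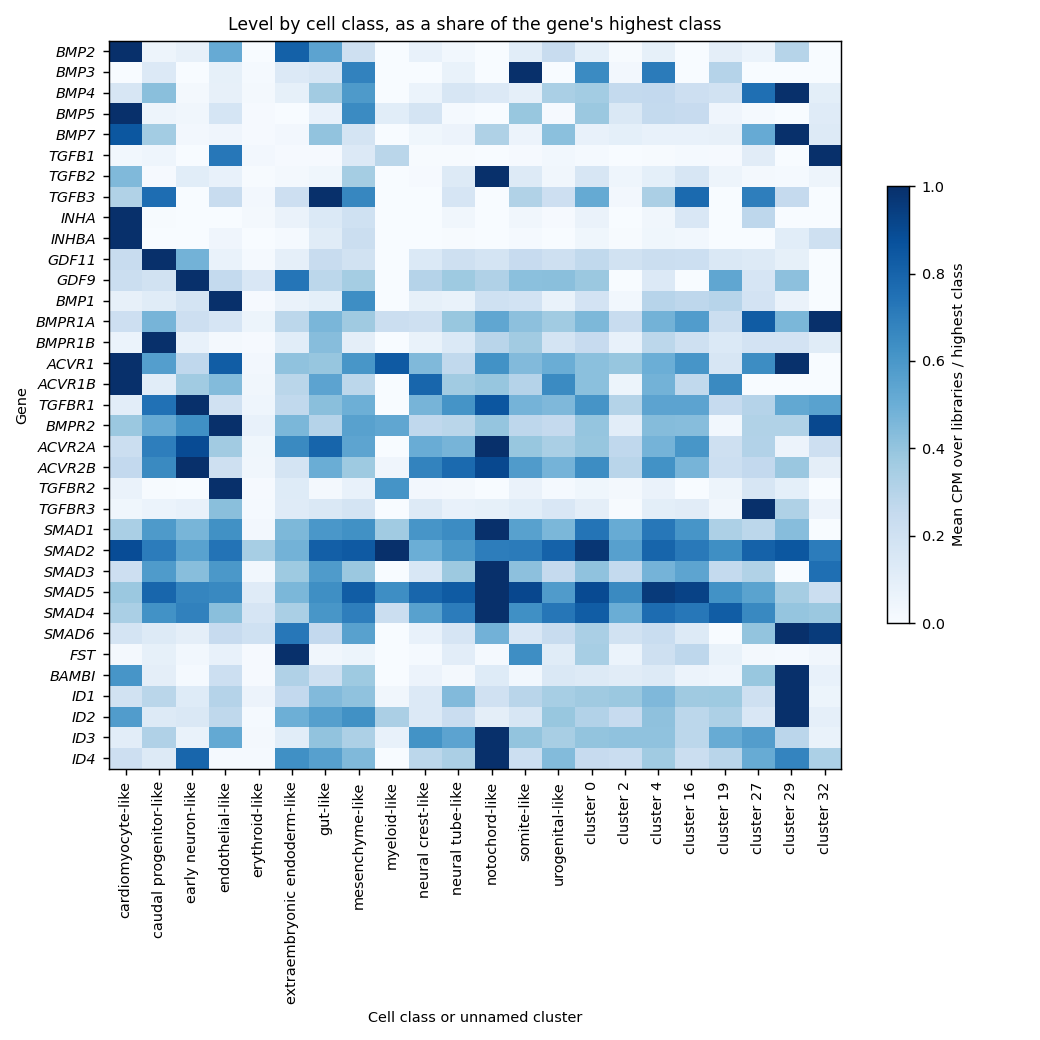
Mean CPM of each member in each named class and unnamed cluster, divided by the level of the highest class of that gene, from 0 (white) to 1 (dark blue); cluster 27 is led by *PTPRO*, cluster 29 by *TAC3* and cluster 32 by *GP1BB*. Most ligands and inhibitors are dark in few classes, whereas *SMAD2*, *SMAD4* and *SMAD5* are filled across most classes other than the erythroid-like one.

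By this mean, *BMP4*, *BMP7*, *BAMBI*, *ID1* and *ID2* were all highest in the same small cluster, which remained unnamed and was led by *TAC3*, *SPP1* and *GABRP*. It held 35, 30 and 103 cells, so its level is that of E16 HS alone, set against means over up to 3 libraries for other classes. *BMP4*, *BMP7* and *BAMBI* were also higher in E16 HS over all cells. In its E16 HS cells *BMP4* measured 99.0 CPM (81.8 to 119), *BMP7* 148 (127 to 172), *BAMBI* 580 (538 to 626) and *ID1* 2385 (2297 to 2475). The 28 cardiomyocyte-like cells of E16 HS, too few to enter the mean, had more *BAMBI* than this cluster, at 1026 CPM (881 to 1188). In its fewer day 19 cells *BMP7* measured 169 (133 to 212) in E19 HSTS and 137 (99.2 to 185) in E19 HS, and *ID1* 2078 (1946 to 2217) and 2924 (2738 to 3120). *BMP7* and *ID1* were therefore high in this cluster in every library. A cluster led by *PTPRO* and *PTPRQ*, with 34, 72 and 136 cells, came next for *BMP4* (74.6 CPM) and was the highest for *TGFBR3* (55.8 CPM). Among classes with at least 50 cells, *BMP4* was highest in mesenchyme-like cells in E19 HSTS (79.5 CPM) and in this *PTPRO* cluster in E19 HS (72.6 CPM).

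Cardiomyocyte-like cells were highest for *BMP2* (11.5 CPM), *BMP5* (26.9), *INHA*, *INHBA* (16.0), *ACVR1* and *ACVR1B*, and came next to the *TAC3* cluster for *BMP7* (126 CPM). In E19 HSTS and E19 HS these cells had only 1 and 2 UMIs of *ACVR1B*, 7 and 6 of *ACVR1* and 8 and 6 of *INHA*. Notochord-like cells, which numbered 96 and 144 at day 19 and only 6 at day 16, were highest for *TGFB2* (136 CPM), *ACVR2A*, *SMAD3*, *ID3* (1196 CPM) and *ID4* (59.4 CPM). Endothelial-like cells were highest for *BMP1*, *BMPR2* (32.4 CPM) and *TGFBR2* (18.7 CPM), and both of these receptors have known roles in vessels. In this class *TGFBR2* had 37 and 70 UMIs at day 19, or 23.9 and 32.3 CPM. Its breed ratio there was 0.739, within 1.5-fold and with an interval that included 1. In the 52 cells of E16 HS it had 0 of 416004 UMIs, with an exact Poisson interval that reached 8.87 CPM. The level in E16 HS was thus also below the 32.3 CPM of E19 HS within this class. Endothelial-like cells made up 1.75%, 2.66% and 0.459% of kept cells. The part of this makeup in the lower *TGFBR2* of whole libraries was not tested. *TGFB1* was also high in endothelial-like cells (80.4 CPM) and in a cluster led by the platelet genes *GP1BB*, *CLEC1B* and *TREML1* (111 CPM).

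Caudal progenitor-like cells, with 31, 115 and 1141 cells, were highest for *GDF11* (20.8 CPM) and *BMPR1B* (28.3 CPM). Early neuron-like cells were highest for *ACVR2B* (135 CPM) and *TGFBR1* (47.3 CPM). *FST* was highest in extraembryonic endoderm-like cells (563 CPM), followed by somite-like cells (359 CPM), and *BMP3* was highest in somite-like cells. Over the 12 classes with at least 50 cells in every library, which leave out the cardiomyocyte-, notochord-, early neuron- and caudal progenitor-like classes and the *TAC3* and *PTPRO* clusters, among others, 8 of 35 members had the same highest class in all 3. It was the somite-like class for *BMP3*, the mesenchyme-like class for *BMP5* and *TGFB2*, the endothelial-like class for *TGFB1*, *BMP1*, *BMPR2* and *TGFBR3*, and the gut-like class for *BMPR1B*, so for several of them it was not the highest class named above. Over all 22 classes and clusters, 2 members had the same highest class in all 3 libraries.

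Across 36 class and library points, the rank correlation (Spearman's rho) of *BMP4* with *ID1* was 0.594, of *BMP2* with *ID2* 0.755 and of *BAMBI* with *ID2* 0.701. Among the targets it was 0.554 for *ID1* with *ID2* and 0.506 for *ID1* with *ID3*. The points share 3 libraries and differ in depth, and these values are a description only.

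Within classes, E19 HSTS and E19 HS could be compared in 12 classes and 177 pairs of a member and a class with at least 30 UMIs. Of these, 49 pairs passed 1.5-fold (17.8% of 64733 pairs over all genes): 26 were higher in E19 HSTS, where 13.4% of all pairs were, and 23 were lower, where 4.43% were. The median ratio of all genes was above 1 in every class, from 1.02 in erythroid-like to 1.21 in somite-like cells. After each ratio was divided by the median of its class, 16 pairs were higher (9.04%, against 7.48% of all pairs) and 31 were lower (17.5%, against 6.68%). The lower pairs were mostly *ID* genes and TGF-beta ligands.

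*ID1* was lower in E19 HSTS in 12 of 12 classes, with ratios from 0.337 to 0.874 and a median of 0.686. In neural crest-like cells it measured 143 CPM in E19 HSTS and 426 in E19 HS (ratio 0.337, 0.276 to 0.409), and in cardiomyocyte-like cells 257 and 639 (0.402, 0.347 to 0.466). In mesenchyme-like cells it measured 1180 and 1393 CPM (0.847, 0.819 to 0.876) and in neural tube-like cells 1057 and 1210 (0.874, 0.855 to 0.893). The direction was thus the same in classes with low and high *ID1*, while the size was not. The interval lay below 1 in each class, although in notochord-like cells it ended at 1.00. *ID3* was lower in 11 of 12 classes, from 0.286 (0.208 to 0.389) in cardiomyocyte-like cells to 0.890 (0.832 to 0.951) in gut-like cells, and notochord-like cells had 1259 CPM in E19 HSTS against 1132 in E19 HS (1.11, 1.00 to 1.23). Past 1.5-fold after division by the class median were 8 of 12 classes for *ID1* and 7 of 12 for *ID3*. *ID2* and *ID4* had ratios above 1 in 6 of 11 and 4 of 9 classes. Against the class median each was lower in 7 of these classes, past 1.5-fold in 4 for *ID2* and 1 for *ID4*, and each was past it on the higher side in 1.

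*TGFB2* was lower in E19 HSTS in 5 of 5 classes, with ratios from 0.536 to 0.885. In notochord-like cells, where it was most abundant, it measured 97.3 CPM against 174 in E19 HS (0.560, 0.395 to 0.783), in cardiomyocyte-like cells 42.4 against 79.1 (0.536, 0.359 to 0.793) and in neural tube-like cells 12.8 against 20.7 (0.616, 0.506 to 0.746). The interval of the somite-like class, at 0.885 (0.689 to 1.13), included 1. *TGFB1* was not lower in endothelial-like cells, its main named class, with 84.5 against 70.1 CPM (1.21, 0.947 to 1.53), but was lower in urogenital-like cells with 2.31 against 6.85 CPM (0.338, 0.158 to 0.674).

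*BMP4* had ratios from 0.775 to 1.44 in 6 classes. It was higher in E19 HSTS in mesenchyme-like cells, with 79.5 against 55.4 CPM (1.44, 1.24 to 1.66), and in neural tube-like cells, with 13.5 against 9.75 CPM (1.39, 1.11 to 1.73), and lower in urogenital-like cells, with 27.4 against 35.3 CPM (0.775, 0.615 to 0.976). The median ratio of all genes in the first of these classes was 1.15 and in the second 1.17, so both values were less far from their class than from 1. *BMP7* was 2.21-fold (1.56 to 3.14) higher in mesenchyme-like cells, with 19.0 against 8.62 CPM, and its ratio in the other abundant classes was 0.993 (0.843 to 1.17) in urogenital-like and 1.25 (0.959 to 1.64) in cardiomyocyte-like cells. *SMAD3* could be compared in neural tube-like cells only, at 2.74 against 1.36 CPM (2.01, 1.15 to 3.59). *FST* was higher in 8 of 9 classes, among them extraembryonic endoderm-like cells with 943 against 599 CPM (1.57, 1.44 to 1.72) and somite-like cells with 269 against 206 CPM (1.31, 1.22 to 1.40).

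**Figure D4:**
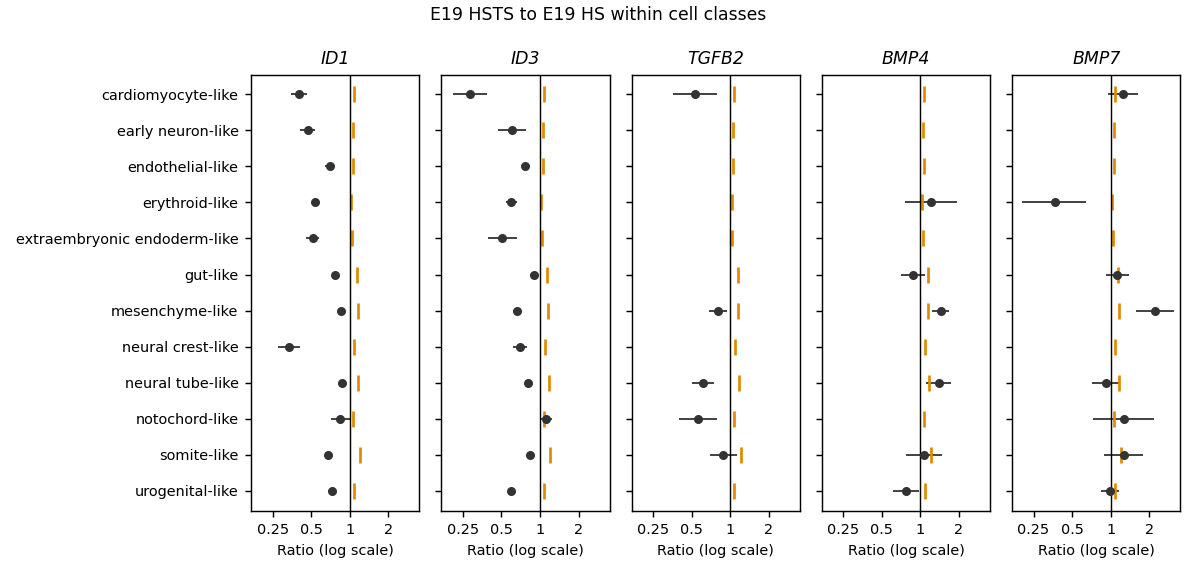
Ratio of E19 HSTS to E19 HS within each named class for *ID1*, *ID3*, *TGFB2*, *BMP4* and *BMP7*, on a log axis with exact intervals; orange ticks are the median ratio of all genes in the class, and classes with under 30 UMIs have no point. *ID1* lies left of 1 in 12 of 12 classes and *TGFB2* in 5 of 5, while *BMP4* and *BMP7* lie on both sides.

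The makeup of the libraries moved with the breed ratios over all cells. The members past 1.5-fold without erythroid-like cells were *TGFB3* and *SMAD3*, and the median ratio of all genes was then 1.16. The ratio of *ID1* was 0.772 and that of *ID3* 0.726, both further from that median than from 1. Of the 21 members with a breed ratio below 1 over all cells, 15 had one above 1 without erythroid-like cells, among them *BMP4* (0.908 and 1.16) and *BMPR1B* (0.812 and 1.06), and the 6 that stayed below 1 were *TGFB1*, *TGFB2*, *TGFBR2*, *ID1*, *ID3* and *ID4*. With equal weight for each class, *TGFB2* (0.635) was the 1 member past the fold on the lower side.

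Between the stages, 10 classes and 183 pairs could be compared within Hu sheep, and 96 pairs passed 1.5-fold (37.4% of 67745 pairs over all genes): 35 were higher in E16 HS (25.3% of all pairs) and 61 were lower (12.1%). Over the class medians, 22 were higher (12.0%, against 14.0% of all pairs) and 72 were lower (39.3%, against 16.2%). Some classes were made of different clusters at each stage: most mesenchyme-like cells of E16 HS came from a cluster led by *REG4*, *COL1A1* and *LUM* and those of E19 HS from one led by *POSTN* and *HAND2*, a gut-like cluster with *UPK3A* was nearly only from E16 HS, and erythroid-like cells of each stage formed clusters of their own. Values of these 3 classes therefore compare different cells as well as different days.

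*BMP7* in mesenchyme-like cells measured 51.9 CPM in E16 HS and 8.62 in E19 HS (ratio 6.03, 4.59 to 8.06), and in gut-like cells 81.7 and 46.6 CPM (1.75, 1.5 to 2.05). In caudal progenitor-like cells it was lower in E16 HS, with 39.2 against 67.2 CPM (0.584, 0.440 to 0.787), and in urogenital-like cells it was 67.3 against 60.4 CPM (1.11, 0.947 to 1.31). The higher *BMP7* of the whole E16 HS library was therefore not found in every class. *BMP4* was higher in E16 HS in neural tube-like cells, with 24.8 against 9.75 CPM (2.54, 2.03 to 3.18), and in caudal progenitor-like cells, with 50.8 against 33.0 CPM (1.54, 1.05 to 2.36). It was lower in gut-like cells, with 20.4 against 46.4 CPM (0.440, 0.360 to 0.538), in mesenchyme-like cells (0.726, 0.642 to 0.822) and in somite-like cells (0.306, 0.147 to 0.578). With equal weight for each class its stage ratio was 1.06, and that of *BMP7* was 1.27.

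Of the other ligands, *TGFB1* in mesenchyme-like cells measured 31.9 against 7.66 CPM (4.16, 3.11 to 5.69), and in endothelial-like cells 86.5 against 70.1 CPM (1.23, 0.833 to 1.79). *INHBA* in mesenchyme-like cells had a ratio of 2.81, and *TGFB2* in the same class had 34.2 against 61.1 CPM (0.559, 0.496 to 0.632). *FST* was higher in E16 HS in 9 of 10 classes, with 602 against 206 CPM in somite-like cells (2.93, 2.73 to 3.13) and 136 against 24.8 CPM in urogenital-like cells (5.47, 4.48 to 6.72). The exception was extraembryonic endoderm-like cells, with 146 against 599 CPM (0.244, 0.191 to 0.308).

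The direction of the SMADs over all cells was also that within most classes. *SMAD1* was lower in E16 HS in 7 of 7 classes and *SMAD5* in 9 of 10, the exception being erythroid-like cells, where the median ratio of all genes was 1.84. *SMAD5* in mesenchyme-like cells measured 30.6 against 50.4 CPM (0.607, 0.532 to 0.694) and in neural tube-like cells 34.9 against 48.1 CPM (0.726, 0.624 to 0.842). *SMAD2* was higher in 8 of 9 classes, although its interval lay above 1 in only 3 of them. *ACVR2A* was lower in 5 of 5 classes.

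The *ID* genes of mesenchyme-like cells were far lower in E16 HS. There, *ID1* measured 351 against 1393 CPM (0.252, 0.245 to 0.259), *ID2* 51.5 against 210 (0.245, 0.227 to 0.265) and *ID3* 195 against 587 (0.333, 0.319 to 0.347). In urogenital-like cells *ID1* measured 549 against 1111 CPM (0.494, 0.471 to 0.518). By contrast, *ID1* was higher in E16 HS in gut-like cells, with 1355 against 1034 CPM (1.31, 1.27 to 1.36), and *ID3* in neural crest-like cells, with 1064 against 684 CPM (1.56, 1.43 to 1.69). Mesenchyme-like cells of E16 HS thus had more *BMP7*, *TGFB1* and *INHBA* and less *BMP4*, *ID1*, *ID2* and *ID3* than those of E19 HS.

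The study names the AER by *FGF8* and *WNT5B* and ties its regression to *BMP4*, *BMP7* and *SMAD3*. It reports their increased expression for E16 HSTS, which is not among the libraries here, so that statement could not be examined. The members were also measured in cells with at least 1 UMI of both *FGF8* and *WNT5B*. There were 14, 24 and 384 such cells, or 0.146%, 0.226% and 3.39% of kept cells. In E16 HS, 339 of them (88.3%) lay in the caudal progenitor-like class, which is led by *FGF8* and *WNT5B* themselves and also by *CDX2*, *CDX4* and *DLL3*. Cells with both genes held more UMIs than the others (medians of 10442 and 8972 in E16 HS), and a deeper cell is more likely to pass the gate.

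In E16 HS, *BMP4* measured 38.8 CPM in cells with both genes and 29.0 in the others (ratio 1.34, 1.14 to 1.56), *BMP7* 55.2 and 30.7 CPM (1.80, 1.57 to 2.05), and *SMAD3* had 6 UMIs in the gated cells, or 1.33 against 0.948 CPM (1.40, 0.503 to 3.16). *SMAD3* was thus too sparse to compare. In all, 12 of 20 members with enough counts passed 1.5-fold, where 25% of 6488 genes did: *BMP7*, *GDF11*, *BMPR1B*, *TGFBR1*, *ACVR2B* and *SMAD1* were higher (18.6% of all genes) and *BMP5*, *TGFB1*, *TGFB2*, *FST*, *BAMBI* and *ID2* were lower (6.49%). *BMPR1B* had the widest gap, with 32.8 against 4.52 CPM (7.26, 6.0 to 8.75), followed by *GDF11* with 16.2 against 3.26 CPM (4.97, 3.81 to 6.41).

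Since most gated cells were caudal progenitor-like, they were also set against the 802 caudal progenitor-like cells of E16 HS without both genes. Here 4 of 17 members passed (5.80% of 6088 genes did). *BMP7* stayed higher, with 56.3 against 30.6 CPM (1.84, 1.52 to 2.23), as did *BMPR1B*, with 37.3 against 20.2 CPM (1.84, 1.45 to 2.33). *FST* was lower, with 37.3 against 88.5 CPM (0.422, 0.349 to 0.506), and so was *ID2* (0.565, 0.448 to 0.706). *BMP4* was on the other side of 1, with 40.7 against 55.9 CPM (0.729, 0.602 to 0.879), and *GDF11* was at 1.49 (1.06 to 2.08).

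**Figure D5:**
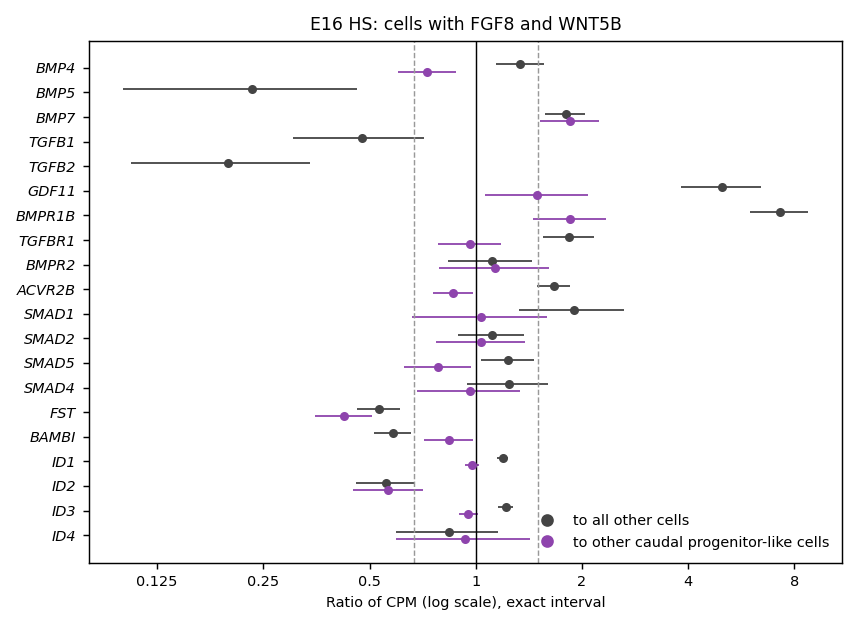
Ratio of the level in E16 HS cells with *FGF8* and *WNT5B* to that in all other cells (grey) or in other caudal progenitor-like cells (purple), on a log axis with exact intervals and dashed lines at 1.5-fold. *BMP7* and *BMPR1B* lie right of 1 against both sets of cells, whereas *BMP4* lies right of 1 against all cells and left of it within the class.

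In the day 19 libraries the gate left few transcripts and different cells. Of the gated cells, 2 of 14 (14.3%) in E19 HSTS were caudal progenitor-like, with 4 urogenital-like and 4 neural tube-like, whereas 15 of 24 (62.5%) in E19 HS were, and the median was 16607 UMIs in the former and 7043 in the latter. *BMP7* had 16 UMIs in the gated cells of E19 HSTS and 20 in those of E19 HS, or 76.7 CPM (43.8 to 124) and 83.7 CPM (51.2 to 129), against 12.9 and 13.7 CPM in the other cells. *BMP4* had 2 and 4 UMIs, and *SMAD3* had 0 and 1. *BMP7* was therefore higher in gated cells of every library than in all other cells, and the breeds were not compared within them. At day 19 the gated cells were not set against others of their own class. Urogenital-like cells of E19 HSTS as a class measured 59.9 CPM.

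Of 56 further genes of the pathway listed by role, 48 were found. Between the breeds 25 of them had enough counts, and 1 passed 1.5-fold over all cells, where 8.80% of all genes did. This was *SKIL*, an inhibitor of SMAD transcription, with 49.7 CPM in E19 HSTS against 31.1 in E19 HS (1.60, 1.53 to 1.68). With equal weight for each class, *SKIL* (2.02), *CER1* (2.005), *SKI* (1.925), *SMURF2* (1.85), *CCN2* (1.70) and *LEMD3* (1.60) were past 1.5-fold. In this setting more of all genes were higher than lower, with the shares given above for equal weight. The lowest of the 25 was then *LTBP3* (0.789). Between the stages 27 had enough counts, of which 5 were higher in E16 HS (23.1% of all genes were) and 6 were lower (8.44%). The higher ones included 3 of 5 secreted antagonists, namely *NOG* (1.82, 1.29 to 2.59), *CHRDL2* (1.79, 1.30 to 2.49) and *CER1* (4.10, 3.47 to 4.86), together with *SKI*, another SMAD corepressor, and *GATA3*. The lower ones were the co-receptors *ENG* (0.216, 0.155 to 0.294), *RGMA* and *RGMB* and the targets *DLX5*, *CCN1* (0.172, 0.15 to 0.197) and *CCN2* (0.412, 0.357 to 0.475). *CCN1* is also an immediate early gene of the list above. With equal weight for each class, *NOG* (1.42), *CHRDL2* (1.01), *ENG* (0.958), *RGMA* (0.890) and *RGMB* (0.710) were within 1.5-fold. *CER1* (1.71), *SKI* (2.005), *GATA3* (1.60), *DLX5* (0.373), *CCN1* (0.160) and *CCN2* (0.441) stayed past it. *TWSG1* (0.610) and *TGFBI* (0.472) were then lower too. The shares of all genes past the fold between the stages are again those given above for equal weight.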

How the data were processed

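Single-cell transcripts were counted in 3 libraries of dissociated whole embryos. The authors made the deposited files with Cell Ranger 6.1.2 per the labels: raw UMI counts per gene and barcode, without normalization, with Ensembl gene identifiers, on the sheep genome that the study's methods name as Ovis_aries_genome_v1.0. They hold 11114 (E19 HSTS), 12064 (E19 HS) and 12645 (E16 HS) barcodes. The study's own analysis used R 4.1.2 and Seurat 4.1.1. Its annotation of cells was not used here.

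The kept cells had at least 200 and at most 6000 genes, a total of 1000 to 30000 UMIs and a mitochondrial share of up to 10%. The study's stated limits of at least 500 genes and under 5% mitochondrial UMIs, tried as an alternative, leave 8349, 9284 and 10120 cells. Cells of all libraries were clustered together in R 4.3.3 with Seurat 5.3.0 (log-normalized to 10000, 2000 variable genes of which the 15 members were left out, 25 components, resolution 1.0, without batch correction), so a cluster mostly of 1 library may be that library. A cluster was named from marker lists where at least 3 markers were detected and its leading genes did not go against the name. Scrublet marked 193, 0 and 198 cells, so doublets were treated only by leaving out, as an alternative, the 8% of cells with the highest scores.

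UMIs of a member were summed per library, class or gate and divided by the total of the same cells, as counts per 1000000 (Python 3.11.15, scipy 1.17.1). Intervals are exact Poisson for CPM, Clopper-Pearson for shares and exact conditional binomial for ratios, at 95%; they cover counting error only. A count of 0 allows up to 3 counts. A ratio was counted as past the fold at 1.5 with at least 100 UMIs in the higher library, or 30 within a class of at least 50 cells in both libraries. No gene was tested, as each condition is 1 library. TMM factors came from edgeR 4.0.16. Scripts were tested on simulated data.

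Values in every library were planned for members with at least 500 UMIs in a library and for *BMP4*, *BMP7* and *SMAD3*, ordered by role, with the others in ranges; further values given were chosen after they were seen. Members and lists were chosen with earlier results of these data known, and the list of immediate early genes was written after the *ID* values were seen. *SMAD9*, *BMP8A*, *BMP8B*, *GDF1* and *GDF3* were not matched by symbol, and *TGFBRAP1*, *BMPER*, *BMP2K*, *TGFBI* and *TGFB1I1* share a prefix but are not family members. Promoter sequences and motifs were not analysed here.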

Additional observations from a re-analysis of the deposited data

Results flagged for a closer look

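The breed ratio (E19 HSTS over E19 HS) was past 1.5-fold in opposite directions in different classes for 3 members. Their intervals lay on opposite sides of 1. *BMP4* and *ID3* also had intervals on both sides of 1, but were not past 1.5-fold on both sides. The difference between the classes was not tested for any member, and each class is 1 library per breed. *BMP7* was at 2.21 (1.56 to 3.14) in mesenchyme-like cells and at 0.365 (0.203 to 0.642) in erythroid-like cells, where it measured only 0.485 and 1.33 CPM. *ID2* was at 1.65 (1.33 to 2.04) in extraembryonic endoderm-like cells and at 0.426 (0.233 to 0.746) in neural crest-like cells. *ID4* was at 2.06 (1.19 to 3.75) in erythroid-like cells, again at a level near 1 CPM, and at 0.617 (0.439 to 0.863) in early neuron-like cells.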

How the results depend on the processing

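The count of members past 1.5-fold between the breeds, 6, became 2 without erythroid-like cells, 3 with at least 500 UMIs and 0 at 2-fold (2.72% of all genes passed there). It was 4 to 8 under the stricter cell filter, all deposited cells, TMM scaling, equal weight of classes, left-out doublet scores and at least 20 UMIs. Between the stages the count of 12 became 7 with equal weight of classes (2 higher, 5 lower) and 7 at 2-fold, and was 9 to 17 otherwise; the split was 7 higher and 8 lower under TMM scaling and 7 and 7 without erythroid-like cells. Among the members past 1.5-fold between the breeds, *TGFB1* was the 1 whose ratio changed sides, to 1.02 with equal weight of classes. In that setting 21 further breed ratios of 29 and 27 of 32 stage ratios moved beyond their intervals. Without erythroid-like cells 26 of 29 and 10 of 32 did, and 15 of the 21 breed ratios below 1 became ratios above 1, such as *BMP4* (1.16), *BMPR1A* (1.11) and *BMPR1B* (1.06). The number of members with a leading class was 28 at resolution 0.25 and 31 otherwise. The 49 pairs of a member and a class between the breeds were 35 at resolution 0.25, 42 without the highest doublet scores and 47 over the class medians. Members in at least 1% of cells numbered 14, 12 and 15 when 2 UMIs were required. Of the 12 members past the fold in E16 HS cells with *FGF8* and *WNT5B*, 9 or 11 did so with 2 UMIs of each gene or without the highest doublet scores, and 4 within the caudal progenitor-like class, an alternative chosen after seeing the data, as was the division by class medians. No paired analysis was possible because each condition has 1 library and the labels carry no replicate numbers. The number of embryos and, for sparse members, the depth limit what these libraries can show.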
